A study of Mus musculus with 12 samples.

Results

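The 49 genes described here encode the ligands, receptors and modulators of Wnt signalling, together with the feedback targets most often used to read the pathway. They were chosen by symbol among the 24060 gene rows: every row whose symbol is Wnt, Fzd, Sfrp, Dkk or Rspo followed by a number, plus Lrp5, Lrp6, Axin2, Lef1, Tcf7, Nkd1, Notum and Wif1. This gave 19 Wnt ligands, 10 Fzd receptors, 2 Lrp co-receptors, 4 Rspo agonists, 10 secreted inhibitors and 4 genes whose products act inside the cell. The levels come from RNA of 12 rhabdoid tumors, malignant tumors of poorly differentiated cells that have lost Smarcb1. The mice, P0-CreC;Smarcb1 flox/flox, carry 2 floxed copies of Smarcb1, a core subunit of the SWI/SNF chromatin remodelling complex, and the P0-CreC transgene, a Cre recombinase active in neural crest cells and the Schwann cell lineage. Every tumor has this genotype, arose without treatment and carries no age in the labels, and no normal tissue or control tumor was among the samples used here. The labels give 4 tumors as retro-orbital, 3 as cheek, 3 as meninges and 1 each as vestibular nerve and trigeminal nerve.

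Wnt proteins are secreted lipid-modified ligands that bind Fzd receptors together with the co-receptors Lrp5 or Lrp6. In the canonical branch this protects beta-catenin from degradation, and beta-catenin then works with the TCF/LEF factors (Lef1, Tcf7 and relatives) to switch on targets such as Axin2, Nkd1 and Notum, which in turn restrain the pathway. Sfrp proteins and Wif1 bind the ligands, Dkk proteins occupy the Lrp co-receptors, Notum removes the lipid from Wnt proteins, and Rspo proteins raise receptor levels at the surface. In the embryo Wnt signals induce the neural crest, the lineage in which Cre is active in these mice.

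Each level is in RPKM, a read count divided by transcript length and by the size of the library, so that levels can be set side by side between genes. The totals that the values were scaled to were recovered from the steps between low values and ranged from 13206173 to 57128408 fragments per tumor. For most of the 49 genes, the transcript length was set to the smallest length that made all 12 values whole fragments. The other genes were given an annotated length. Whole fragments in the genes with a length set this way therefore do not test the recovered totals, and their fragment counts rest on that choice. At the lengths used, a level of 3 fragments corresponded to between 0.0041 RPKM for the longest transcript in the deepest tumor and 0.173 RPKM for the shortest in the shallowest. Smarcb1, the deleted gene, was between 1.70 and 6.31 RPKM in the 12 tumors, with no undeleted tissue to set beside it. The markers listed for the tumor cells of this model (Fabp7, Vim, Acta2, Twist1 and Ets1) summed to between 235 and 3117 RPKM, lowest in the vestibular nerve tumor. Vim was the largest part of the sum in every tumor, at 114 to 3001 RPKM. Fabp7 ranged from 0.0637 RPKM in retro-orbital 4 to 44.8 RPKM in meninges 1, so the sum does not stand for all 5 markers. Some tumors share the leading number of their identifier (cheek 1 with meninges 1, cheek 2 with cheek 3, retro-orbital 3 with the trigeminal nerve tumor), so the 12 tumors carry 9 such numbers, and whether a shared number marks the same mouse is not stated. Cheek 2 and cheek 3 had close levels of most Wnt genes, though they were not one library: Krt14, a basal keratin, was 32.5 RPKM in cheek 2 and 270 RPKM in cheek 3. The p-values between locations set differences of means against the spread between tumors of the same location. Except where stated, they treat each tumor as independent.

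Transcripts of 13 of the 49 genes reached 1 RPKM in all 12 tumors, and 9 genes stayed below 1 RPKM in every tumor. The median over the tumors was at least 10 RPKM for 11 genes and below 1 RPKM for 17. The co-receptor Lrp6 was the steadiest of the 13 genes expressed throughout: it ranged from 21.8 RPKM in retro-orbital 1 to 46.1 RPKM in retro-orbital 2, a ratio of 2.12. At the other extreme, Sfrp4 ranged from 2.63 to 998 RPKM, a ratio of 380. Among the 36 Wnt genes with at least 1 RPKM in 3 or more tumors, the median SD across the 12 tumors was 1.11 on the log2(RPKM + 1) scale, beside 0.478 for all genes that met the same minimum.

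The summed level of the 19 ligand genes ranged from 34.5 RPKM in cheek 3 to 136 RPKM in meninges 3, and 6 different genes led it in 1 tumor or another. Wnt5a, the main ligand of beta-catenin-independent signalling, was the leading ligand in 5 tumors and the only one at 1 RPKM or more in all 12. Its level was 12.6, 3.69, 17.6 and 1.47 RPKM in the 4 retro-orbital tumors, 23.9, 11.2 and 11.3 in the cheek tumors, 24.9, 7.25 and 23.4 in the meninges tumors, 13.5 in the vestibular nerve tumor and 27.1 in the trigeminal nerve tumor. The 3 locations overlapped, and the lowest values were in retro-orbital 2 and 4.

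Wnt11, a ligand of convergent extension and organ growth, was 29.8, 11.9, 3.26 and 93.5 RPKM in the retro-orbital tumors and 7.28, 1.26 and 0.999 RPKM in the cheek tumors. It was 1.21, 19.02 and 2.91 RPKM in the meninges tumors, 3.36 RPKM in the vestibular nerve tumor and 0.771 RPKM in the trigeminal nerve tumor. In retro-orbital 4 it made up 70.2% of the summed ligand level and in retro-orbital 1 it made up 39.2%. In retro-orbital 2 the leading ligand was Wnt2, a ligand of lung and placenta development, at 23.6 RPKM, and Wnt2 was 20.1 RPKM in retro-orbital 1 and at most 5.12 RPKM in the other 10 tumors.

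Wnt16, named here because its values stood out, was 89.7 RPKM in meninges 3 and 47.8 RPKM in the vestibular nerve tumor, and between 0.111 and 3.18 RPKM in the other 10. It supplied 65.8% of the summed ligand level in meninges 3 and 67.0% in the vestibular nerve tumor. The other meninges tumors were led by other genes, meninges 1 by Wnt6 at 26.7 RPKM and meninges 2 by Wnt9a at 24.1 RPKM. The retro-orbital tumors and the meninges tumors therefore did not all share a leading ligand, though Wnt11 led in both retro-orbital 1 and retro-orbital 4. Wnt5a led in all 3 cheek tumors, of which cheek 2 and cheek 3 share an identifier number. It also led in retro-orbital 3 and the trigeminal nerve tumor.

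Wnt9a, a ligand of joint and cartilage formation, was 1.21, 3.44, 10.48 and 2.33 RPKM in the retro-orbital tumors, 3.14, 1.13 and 1.46 RPKM in the cheek tumors and 15.1, 24.1 and 5.69 RPKM in the meninges tumors. It was 1.86 RPKM in the vestibular nerve tumor and 0.470 RPKM in the trigeminal nerve tumor, the lowest of the 12. The meninges tumors lay above all cheek tumors and overlapped the retro-orbital tumors through retro-orbital 3.

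Wnt6 and Wnt10a, ligands of ectoderm and its appendages, are neighbours on chromosome 1 on the same strand (GRCm38, Wnt6 at chr1:74771892-74785322 and Wnt10a at chr1:74791516-74804179). Both were highest in meninges 1, Wnt6 at 26.7 RPKM and Wnt10a at 19.9 RPKM, and both were lowest in retro-orbital 1, at 0.0357 and 0.0188 RPKM. Across the 12 tumors their log2(RPKM + 1) levels had a Pearson r of 0.874 (permutation test, p = 0.00039) and a Spearman rho of 0.853 (permutation test, p = 0.00094). The pair was picked after its values were seen and is the 1 pair tested. Without meninges 1 and retro-orbital 1, the tumors farthest from the median of Wnt10a, r was 0.698. The summed level of 6 epithelial markers (Krt5, Krt14, Krt8, Krt18, Epcam and Cdh1) was 493 RPKM in meninges 1 and 113 RPKM in retro-orbital 1. It was lowest, at 5.76 RPKM, in retro-orbital 2, where Wnt10a was 4.996 RPKM. The part of epithelial cells in the Wnt6 and Wnt10a levels was not tested.

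Of the remaining ligands, Wnt2b was at 1 RPKM or more in 11 tumors, with a median of 2.57 RPKM and its highest level, 18.9 RPKM, in meninges 2. Wnt7b was at 1 RPKM or more in 8 tumors and reached 10.3 RPKM in meninges 1. Wnt4 was at that level in 7 tumors and reached 14.1 RPKM in retro-orbital 4, and Wnt5b was so in 3 and reached 7.93 RPKM in retro-orbital 1. Wnt1, Wnt3, Wnt3a, Wnt7a, Wnt8a, Wnt8b, Wnt9b and Wnt10b were below 1 RPKM in all 12 tumors. Wnt1 and Wnt3a, the ligands best known for inducing the neural crest and for canonical signalling, were each listed at 0 in 7 tumors, and their highest levels rested on 6 and 14 fragments.

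**Figure D1:**
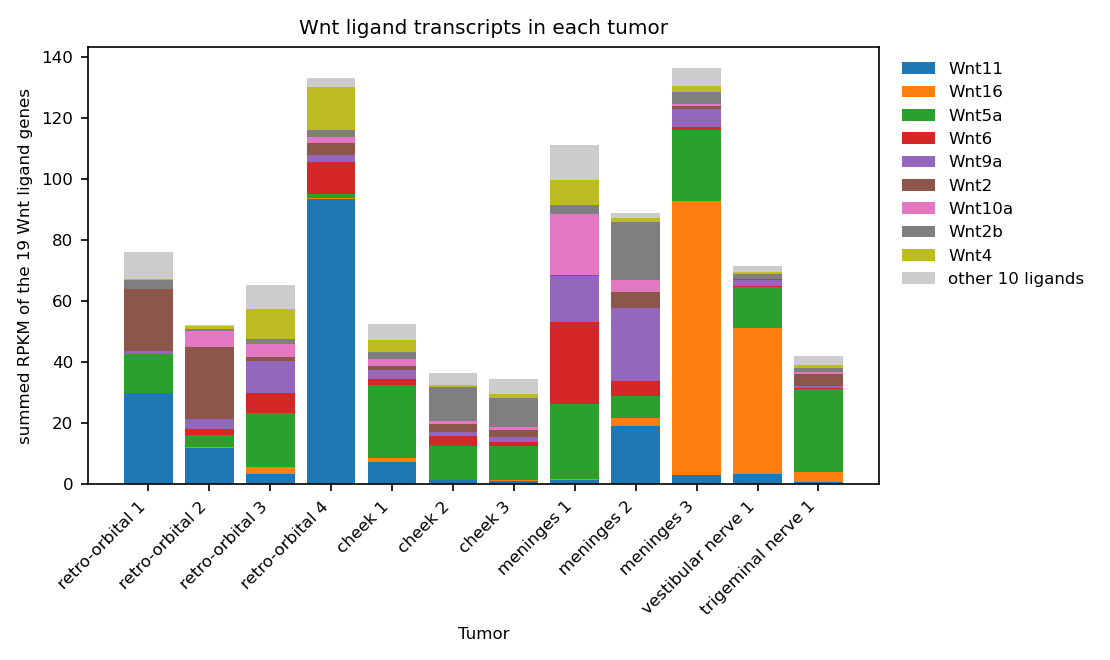
Summed RPKM of the 19 Wnt ligand genes in each of the 12 tumors (bars), split by gene for the 9 ligands with the highest single value, with the other 10 in grey. Wnt11 fills most of the bar of retro-orbital 4, Wnt16 most of those of meninges 3 and the vestibular nerve tumor, and Wnt5a is present in every bar.

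Of the 10 Fzd receptor genes, 6 were at 1 RPKM or more in all 12 tumors, and the summed level ranged from 41.1 RPKM in retro-orbital 4 to 233 RPKM in meninges 2. Fzd7, a receptor of canonical and other Wnt signals in many progenitor cells, had the highest median, 18.02 RPKM. It was 34.6, 5.06, 20.5 and 8.66 RPKM in the retro-orbital tumors, 12.8, 15.2 and 15.6 RPKM in the cheek tumors, 17.6, 22.2 and 43.7 RPKM in the meninges tumors, 18.4 RPKM in the vestibular nerve tumor and 20.1 RPKM in the trigeminal nerve tumor. The locations overlapped.

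Fzd6, a receptor of planar cell polarity, was 5.09, 7.05, 18.8 and 4.82 RPKM in the retro-orbital tumors, 8.01, 24.0 and 25.5 RPKM in the cheek tumors, 24.5, 18.01 and 13.3 RPKM in the meninges tumors, 17.6 RPKM in the vestibular nerve tumor and 26.5 RPKM in the trigeminal nerve tumor. All retro-orbital values except that of retro-orbital 3 were below those of every other tumor. Fzd2 was 9.04, 12.6, 17.9 and 10.4 RPKM in the retro-orbital tumors, 17.9, 3.60 and 4.30 RPKM in the cheek tumors, 29.5, 8.86 and 14.6 RPKM in the meninges tumors, 15.9 RPKM in the vestibular nerve tumor and 17.4 RPKM in the trigeminal nerve tumor. Fzd1 was below 61 RPKM in 11 tumors and 171 RPKM in meninges 2.

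Fzd3, a receptor for axon guidance and polarity in neurons, was 1.98, 0.651, 4.17 and 1.62 RPKM in the retro-orbital tumors, 3.07, 1.06 and 1.22 RPKM in the cheek tumors and 12.6, 4.19 and 6.95 RPKM in the meninges tumors, with 9.53 RPKM in the vestibular nerve tumor and 3.80 RPKM in the trigeminal nerve tumor. Every meninges tumor lay above every retro-orbital and cheek tumor, by a narrow margin between meninges 2 and retro-orbital 3. Fzd9 and Fzd10 were at 1 RPKM or more in 2 tumors each. Lrp5 was between 5.36 and 19.7 RPKM, and in every tumor Lrp6 was the more abundant of the 2 co-receptors.

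Among the Rspo agonists, Rspo1 was 0.604, 0.464, 31.7 and 50.9 RPKM in the retro-orbital tumors, 2.37, 0.685 and 1.24 RPKM in the cheek tumors, 2.68, 1.39 and 1.87 RPKM in the meninges tumors, 2.99 RPKM in the vestibular nerve tumor and 1.96 RPKM in the trigeminal nerve tumor. It thus held both its highest and its lowest values among the retro-orbital tumors. Rspo3 was 9.32, 1.48, 0.665 and 0.638 RPKM in the retro-orbital tumors, 1.72, 0.627 and 0.190 RPKM in the cheek tumors, 0.895, 12.0 and 1.59 RPKM in the meninges tumors, 8.73 RPKM in the vestibular nerve tumor and 0.828 RPKM in the trigeminal nerve tumor. Its 3 high tumors were ones in which Rspo1 stayed below 3 RPKM.

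Rspo2 was low throughout, at 0.133, 0.937, 1.04 and 0.588 RPKM in the retro-orbital tumors, 1.42, 2.56 and 2.06 RPKM in the cheek tumors, 1.39, 3.38 and 1.43 RPKM in the meninges tumors, 1.79 RPKM in the vestibular nerve tumor and 0.863 RPKM in the trigeminal nerve tumor. The retro-orbital tumors lay below all cheek and meninges tumors. Rspo4 passed 1 RPKM in cheek 3 alone, at 1.12 RPKM.

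The 10 genes grouped here as secreted inhibitors outweighed the ligands in 10 of the 12 tumors by summed RPKM. This count depends on the grouping by symbol, which includes Dkk2 and Dkk3 and leaves out the secreted decoy Frzb. In retro-orbital 4 the sums were 141 RPKM for inhibitors and 133 RPKM for ligands, with Dkk3 at 28.1 RPKM. In meninges 3 they were 87.4 and 136 RPKM, with Frzb at 69.0 RPKM. The inhibitor sum ranged from 50.8 RPKM in meninges 1 to 1488 RPKM in cheek 3, and Dkk2 and Sfrp4 each led it in 5 tumors. Sfrp4, a secreted decoy with the ligand-binding domain of the Fzd receptors (GRCm38 chr13:19623104-19632994), was 130, 948 and 998 RPKM in the cheek tumors, 38.9, 521, 25.6 and 13.9 RPKM in the retro-orbital tumors and 2.63, 2.64 and 5.08 RPKM in the meninges tumors. It was 4.28 RPKM in the vestibular nerve tumor and 32.0 RPKM in the trigeminal nerve tumor. All meninges tumors lay below all cheek and retro-orbital tumors, and the lowest meninges value still rested on more than 100 fragments.

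Notum (GRCm38 chr11:120653788-120661175) was 6.71, 45.5 and 38.9 RPKM in the cheek tumors, 0.0914, 1.18, 2.81 and 7.81 RPKM in the retro-orbital tumors, 3.13, 0.188 and 0.501 RPKM in the meninges tumors, 0.279 RPKM in the vestibular nerve tumor and 0.234 RPKM in the trigeminal nerve tumor. The cheek tumors lay above all others but retro-orbital 4, which exceeded cheek 1. Dkk2, which can block or weakly activate Lrp6, was 345 and 325 RPKM in cheek 2 and cheek 3 and 22.2 RPKM in cheek 1. It was 126, 5.19, 24.1 and 78.1 RPKM in the retro-orbital tumors, 18.1, 62.9 and 34.3 RPKM in the meninges tumors, 62.4 RPKM in the vestibular nerve tumor and 7.39 RPKM in the trigeminal nerve tumor.

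The high Dkk2 values of the cheek group thus came from the 2 tumors that share an identifier number. Dkk3, a divergent Dkk protein that does not act on Lrp6 as Dkk1 does, was 44.8, 86.6, 46.4 and 28.1 RPKM in the retro-orbital tumors, 15.3, 88.5 and 78.5 RPKM in the cheek tumors, 12.9, 37.3 and 19.4 RPKM in the meninges tumors, 3.88 RPKM in the vestibular nerve tumor and 10.3 RPKM in the trigeminal nerve tumor. Wif1 was 3.01, 5.05, 17.0 and 7.57 RPKM in the retro-orbital tumors, 15.5, 5.96 and 6.08 RPKM in the cheek tumors, 2.12, 1.001 and 9.47 RPKM in the meninges tumors, 0.801 RPKM in the vestibular nerve tumor and 1.33 RPKM in the trigeminal nerve tumor. Neither gene separated the locations.

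Sfrp2 stood at 397 RPKM in meninges 2 and at most 41.9 RPKM elsewhere, and Sfrp1 reached 22.8 RPKM in meninges 2 and 19.4 RPKM in retro-orbital 3. Dkk1, the classical Lrp blocker, was highest in cheek 1 (6.34 RPKM) and the vestibular nerve tumor (5.38 RPKM) and was listed at 0 in retro-orbital 1. Sfrp5 did not exceed 7.84 RPKM, and Dkk4 stayed below 1 RPKM in all tumors.

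**Figure D2:**
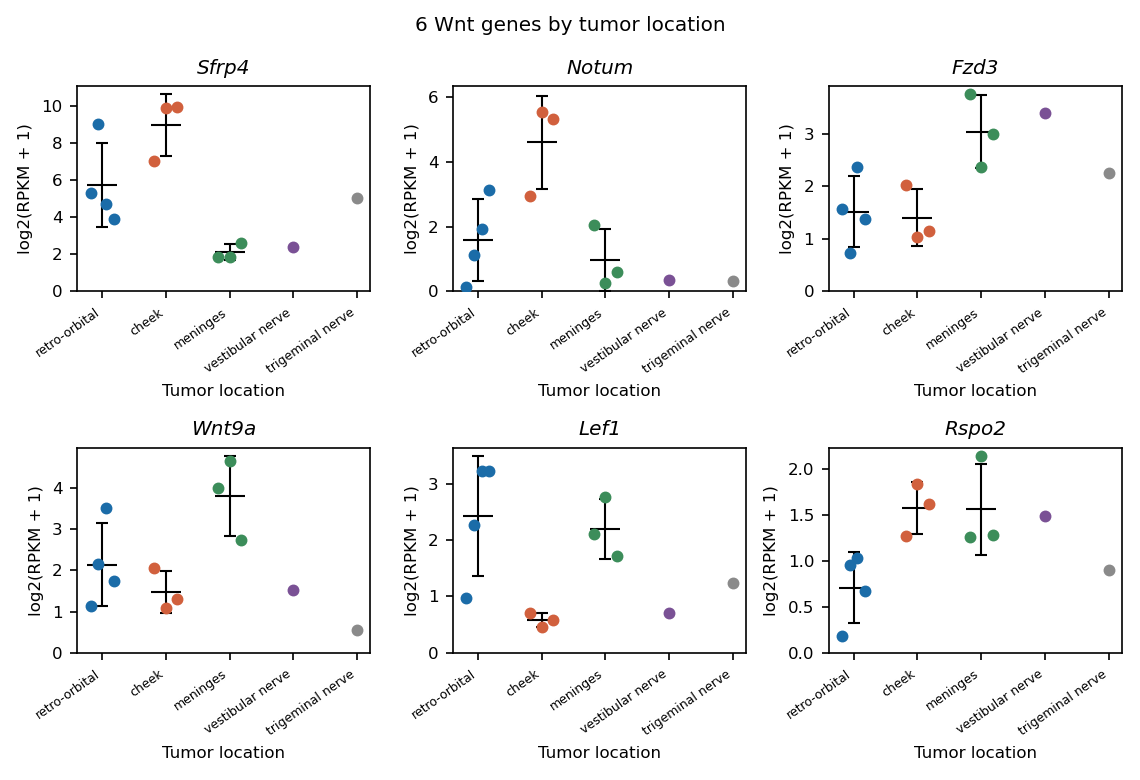
Levels of Sfrp4, Notum, Fzd3, Wnt9a, Lef1 and Rspo2, as log2(RPKM + 1), by tumor location. Each point is 1 tumor, and the black marks give the mean and standard deviation of the locations with 3 or 4 tumors. Among these 3 locations, Sfrp4 is lowest in the meninges tumors, Fzd3 highest there, Lef1 lowest in the cheek tumors and Rspo2 lowest in the retro-orbital tumors.

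The question asked of the 3 locations with more than 1 tumor was whether any Wnt gene differed between them by more than the spread between tumors. limma was fitted on log2(RPKM + 1) for the 14745 genes with at least 1 RPKM in 3 or more of the 10 tumors. Of the 49 Wnt genes, 36 met this minimum, and the other 13 were not tested: Wnt1, Wnt3, Wnt3a, Wnt7a, Wnt8a, Wnt8b, Wnt9b, Wnt10b, Fzd9, Fzd10, Rspo4, Dkk4 and Nkd1. None of the 36 passed an adjusted p of 0.05 in the limma F test over the 3 locations, a call made for 0.0407% of all genes. None passed in cheek minus retro-orbital (background 0.0271%), meninges minus retro-orbital (0.0203%) or cheek minus meninges (0.0475%). At an unadjusted p under 0.05 in the limma F test there were 6 of the 36 (16.7%), beside 14.3% of all genes. The same threshold gave 5 of the 36 in cheek minus retro-orbital (13.9%, beside 12.0% of all genes), 7 in meninges minus retro-orbital (19.4%, beside 9.14%) and 6 in cheek minus meninges (16.7%, beside 17.0%). For 4 of the 36 (11.1%) the tumors of 1 location lay wholly above or below those of both others, and this held for 11.1% of all genes. Apart from meninges minus retro-orbital, these shares were close to those of all genes. The adjusted calls changed with the identifier number as a block, where 11 of the 36 passed the limma F test (30.6%), beside 2802 of the 14745 genes, and 12 passed cheek minus meninges (33.3%, beside 28.8%). These 12 were Axin2, Dkk1, Fzd2, Fzd3, Fzd4, Fzd6, Lef1, Sfrp4, Wif1, Wnt6, Wnt9a and Wnt10a. The block rests on 2 pairs of tumors, and the shared numbers are not stated to mark the same mouse.

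The 6 genes were Sfrp4, Notum, Fzd3, Wnt9a, Lef1 and Rspo2. Sfrp4 had the lowest adjusted p of the Wnt genes: its mean log2(RPKM + 1) was 8.96 ± 1.67 (SD, n = 3) in the cheek tumors, 5.74 ± 2.27 (SD, n = 4) in the retro-orbital tumors and 2.11 ± 0.43 (SD, n = 3) in the meninges tumors. The difference of cheek minus meninges was 6.85 on that scale, with a 95% interval of 4.09 to 9.61 (limma, adjusted p = 0.0835). With the identifier block it was 5.37 (limma, adjusted p = 0.000261). Without cheek 1 it was 7.82 (limma, adjusted p = 0.0214), a setting in which 3.63% of all genes passed. That setting leaves cheek 2 and cheek 3, which share an identifier number and may not be independent. Without retro-orbital 2 the difference was 6.85 (limma, adjusted p = 0.0289). Without cheek 2 or cheek 3 the limma adjusted p was 0.411 or 0.409. The summed level of 6 fibroblast markers (Col1a1, Col1a2, Dcn, Lum, Pdgfra and Col3a1) was 3288 to 4348 RPKM in the cheek tumors, 909 to 1607 RPKM in the retro-orbital tumors and 1164 to 2530 RPKM in the meninges tumors. Col1a2 and Col3a1 made up most of the cheek sums, and both were higher in every cheek than in every meninges tumor. Lum and Dcn went the other way in cheek 2 and cheek 3. Lum was 9.19 and 7.41 RPKM there against 29.9 to 199 RPKM in the meninges tumors. Dcn was 42.4 and 33.6 RPKM against 57.5 to 168 RPKM. In bulk tumor RNA, more cells of a type and more RNA per cell cannot be told apart, and the part of fibroblasts in the Sfrp4 difference was not tested.

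Notum differed between cheek and meninges by 3.64 on the log2(RPKM + 1) scale (95% interval 1.64 to 5.65, limma, adjusted p = 0.137) and between cheek and retro-orbital by 3.02 (95% interval 1.15 to 4.90, limma, adjusted p = 0.257). Without cheek 1, cheek minus meninges was 4.47 (limma, adjusted p = 0.0331). That setting leaves cheek 2 and cheek 3, which share an identifier number and may not be independent. Without cheek 2 the difference was 3.17 and without cheek 3 it was 3.28, with limma adjusted p of 0.514 and 0.497. For Lef1, the TCF/LEF factor that is also a Wnt target, cheek minus retro-orbital was -1.84 (95% interval -3.04 to -0.65, limma, adjusted p = 0.273). Notum and Lef1, both known as Wnt targets, thus had their cheek means on opposite sides of those of the other locations, and neither difference passed the threshold.

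In the meninges tumors the mean log2(RPKM + 1) of Fzd3 was 3.04 ± 0.70 (SD, n = 3), and meninges minus retro-orbital was 1.53 (95% interval 0.48 to 2.57, limma, adjusted p = 0.473). Its cheek minus meninges was -1.64 (limma, adjusted p = 0.186), and -1.71 with the identifier block (limma, adjusted p = 0.000628). For Wnt9a, cheek minus meninges was -2.32 (95% interval -3.77 to -0.87, limma, adjusted p = 0.159), and -2.0 with the identifier block (limma, adjusted p = 0.00121). For Rspo2, cheek minus retro-orbital was 0.87 (95% interval 0.12 to 1.61, limma, adjusted p = 0.357). The intervals of most of the other 30 genes were wide: that of Rspo1 for cheek minus retro-orbital ran from -4.50 to 0.96, and that of Lrp6 from -0.57 to 0.54. The median size of the 36 differences, regardless of sign, was 0.632 for cheek minus retro-orbital, 0.773 for meninges minus retro-orbital and 0.728 for cheek minus meninges, beside 0.316, 0.293 and 0.384 for all genes tested. With sign, 22 of the 36 were higher in meninges than in retro-orbital tumors (median 0.422, all genes 0.132) and 24 were higher in meninges than in cheek tumors (median of cheek minus meninges -0.306, all genes -0.16).

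**Figure D3:**
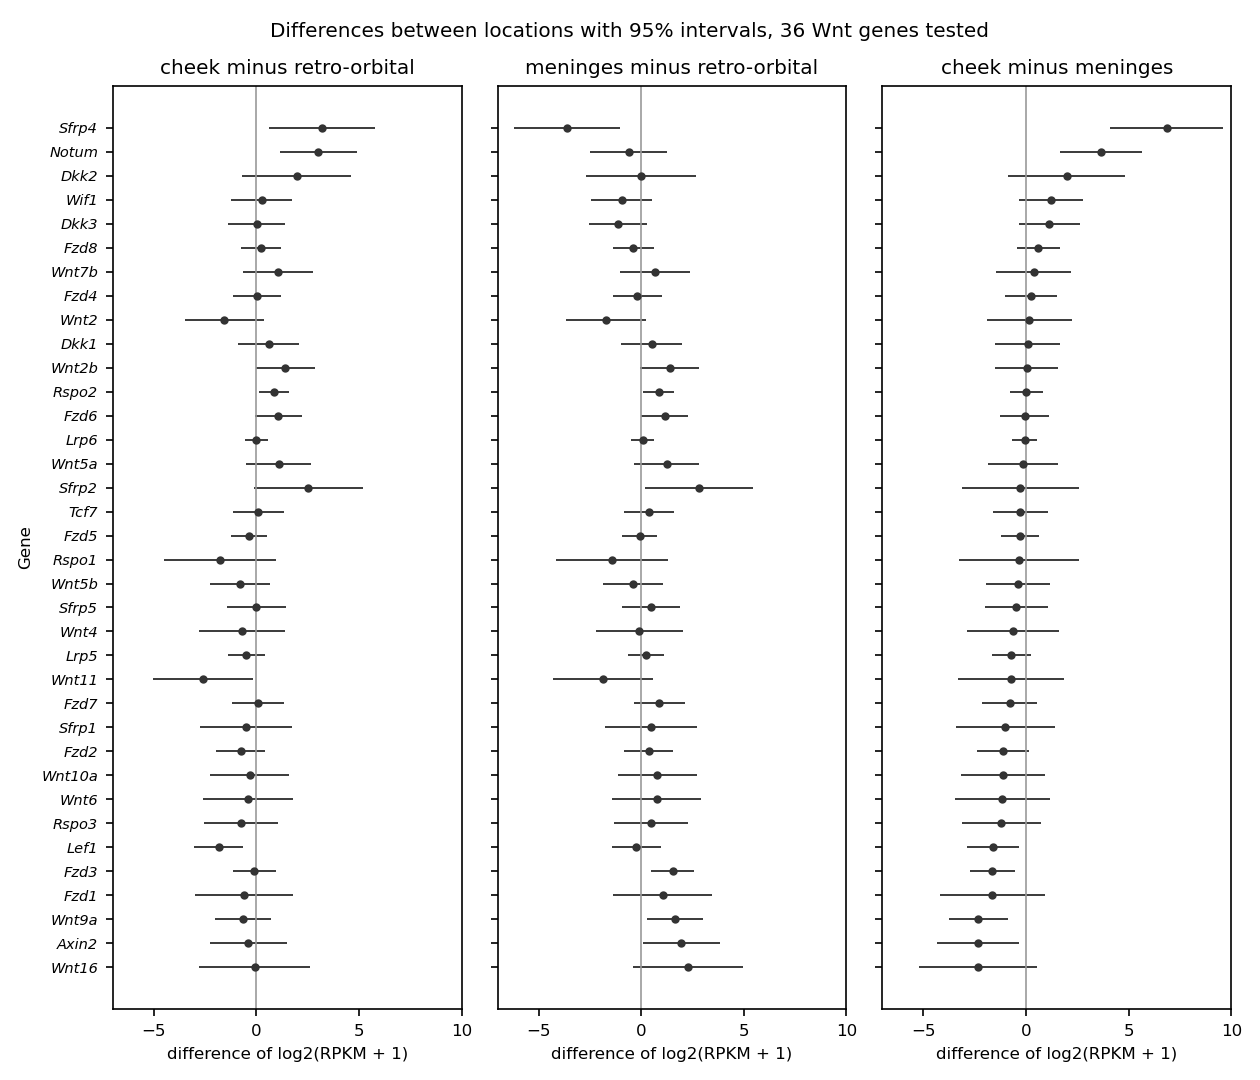
Differences of log2(RPKM + 1) between locations (points) with 95% intervals from limma (lines) for the 36 Wnt genes tested, ordered by cheek minus meninges. Sfrp4 and Notum lie farthest to the right in cheek minus meninges, at 6.85 and 3.64, and most other intervals include 0.

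Axin2, a scaffold of the beta-catenin destruction complex and the most general Wnt target gene, was 0.529, 1.67, 17.0 and 3.35 RPKM in the retro-orbital tumors, 7.31, 1.07 and 0.907 RPKM in the cheek tumors, 24.6, 17.6 and 8.11 RPKM in the meninges tumors, 3.74 RPKM in the vestibular nerve tumor and 6.38 RPKM in the trigeminal nerve tumor. The meninges tumors lay above all cheek tumors and above every retro-orbital tumor but retro-orbital 3. Meninges minus retro-orbital was 1.95 on the log2(RPKM + 1) scale (95% interval 0.07 to 3.83, limma, adjusted p = 0.541).

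Lef1 was 0.971, 3.79, 8.36 and 8.36 RPKM in the retro-orbital tumors, 0.632, 0.374 and 0.493 RPKM in the cheek tumors, 3.29, 5.75 and 2.27 RPKM in the meninges tumors, 0.640 RPKM in the vestibular nerve tumor and 1.36 RPKM in the trigeminal nerve tumor. Tcf7, a second TCF/LEF factor, was 0.775, 0.471, 4.68 and 3.07 RPKM in the retro-orbital tumors, 3.47, 1.53 and 1.35 RPKM in the cheek tumors, 5.68, 1.72 and 1.61 RPKM in the meninges tumors, 1.16 RPKM in the vestibular nerve tumor and 1.98 RPKM in the trigeminal nerve tumor. Nkd1, an inhibitor that binds Dishevelled, was 0.199, 0.0915, 0.919 and 0.354 RPKM in the retro-orbital tumors, 0.388, 0.137 and 0.153 RPKM in the cheek tumors, 1.48, 0.316 and 0.907 RPKM in the meninges tumors, 0.316 RPKM in the vestibular nerve tumor and 0.233 RPKM in the trigeminal nerve tumor. Axin2, Tcf7 and Nkd1 had their highest value in meninges 1, and retro-orbital 3 was among the 3 highest tumors for all 4 genes.

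For each gene with at least 1 RPKM in 3 or more of the 12 tumors, the Pearson r of log2(RPKM + 1) with Axin2 was computed over the 12 tumors, with a two-sided permutation test of 100000 resamples and adjustment over all 15042 genes. No Wnt gene of the 35 tested passed an adjusted p of 0.05, a call made for 0.725% of all genes. At an unadjusted permutation p under 0.05 there were 10 of the 35 (28.6%), beside 22.2% of all genes, and 9 of the 10 had a positive r. The median r of the 35 genes was 0.272, beside 0.185 for all genes, and 25 of the 35 (71.4%) had a positive r, beside 64.0% of all genes.

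Wnt9a had the highest r among the Wnt genes, 0.798 (rho 0.769, permutation test, adjusted p = 0.0677), and r was 0.731 without meninges 1 and retro-orbital 1, the tumors farthest from the median of Axin2. Tcf7 had an r of 0.738 (rho 0.741, permutation test, adjusted p = 0.102) and 0.574 without these tumors. Fzd3 (r 0.731, rho 0.769, adjusted p = 0.109 by permutation), Fzd2 (r 0.703, rho 0.643, adjusted p = 0.118 by permutation) and Fzd5 (r 0.642, rho 0.482, adjusted p = 0.159 by permutation) came next. Lef1 had an r of 0.544 (rho 0.489, permutation test, adjusted p = 0.264). Sfrp4 was the Wnt gene with the lowest r, -0.698 (rho -0.755, permutation test, adjusted p = 0.131), and -0.739 without the farthest tumors. Notum, a Wnt target in many tissues, had an r of -0.342 (rho -0.168, permutation test, adjusted p = 0.526). Without meninges 2, 1 of the 35 Wnt genes (2.86%), Fzd2, passed, beside 3.22% of all genes.

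Of 71 other pathway genes, 62 were tested against Axin2, and 54 of them had a positive r, with a median of 0.451. Of all genes, 64.0% had a positive r, with a median of 0.185. Of the 62 genes 3 passed, beside 0.725% of all genes. These were Apcdd1, a Wnt-induced membrane inhibitor (r 0.922, rho 0.888, permutation test, adjusted p = 0.0301), Celsr2, a planar polarity cadherin (r 0.922, rho 0.881, permutation test, adjusted p = 0.0301), and Tnfrsf19, a TNF receptor family member known as a beta-catenin target (r 0.896, rho 0.937, permutation test, adjusted p = 0.0358). These calls did not hold under every alternative. By Spearman's rho the adjusted permutation p was 0.0684, 0.0641 and 0.0251. Without the farthest tumors r was 0.9003, 0.887 and 0.862, with adjusted permutation p of 0.142, 0.149 and 0.142, and after quantile normalization that p was 0.0954 for each. No gene of the whole table passed in either of these settings. With tumors that share an identifier number averaged, over 9 values, r was 0.921, 0.916 and 0.887, and no gene of the whole table then passed. With each of the 12 tumors left out in turn, Apcdd1 and Celsr2 each passed in 6 and Tnfrsf19 in 5. Leaving out retro-orbital 2, cheek 2, cheek 3 or meninges 1 left no gene past the threshold, and over all left-out tumors the number of genes called ranged from 0 to 481, beside 109 with all 12. The 4 tumors with the highest Axin2 were retro-orbital 3 and the meninges tumors. None of the 6 astrocyte markers had its highest 4 values in exactly these tumors. Gfap and Aqp4 were high in them but also in the trigeminal nerve tumor, and Gja1 was not. Aqp4 was 19.7 RPKM in meninges 2 and 27.4 RPKM in the trigeminal nerve tumor. Slc1a2 and Aldh1l1 were also lower in meninges 2 than in that tumor. Slc1a3 was 29.3 RPKM in retro-orbital 3 and 34.3 RPKM in the vestibular nerve tumor. Gfap was 128 RPKM in retro-orbital 3, 228, 65.1 and 260 RPKM in the meninges tumors and at most 0.626 RPKM in retro-orbital 1 and 2 and the cheek tumors. It was 13.3 RPKM in retro-orbital 4, 26.3 RPKM in the vestibular nerve tumor and 81.5 RPKM in the trigeminal nerve tumor. Gja1 was 180 to 205 RPKM in the cheek tumors, 220 RPKM in retro-orbital 2, 59.1 RPKM in retro-orbital 3 and 31.2 to 111 RPKM in the meninges tumors. Over 13 marker lists of cell types, the summed level of the Schwann cell list had the highest r with Axin2, 0.767, taken over 5 of its 7 genes (rho 0.846, permutation test, adjusted p = 0.0558 over the 13 lists, r 0.74 without the farthest tumors). The value over its full set of genes is not reported here, so this p does not settle whether the list as fixed passes. The sum of the 5 genes was 102.2 to 183.8 RPKM in the meninges tumors, 23.8 to 163.6 RPKM in the retro-orbital tumors and 34.5 to 42.01 RPKM in the cheek tumors. The astrocyte list had an r of 0.609 (rho 0.741, permutation test, adjusted p = 0.149, r 0.389 without the farthest tumors) and the oligodendrocyte list, taken over 5 genes, an r of 0.513 (rho 0.685, permutation test, adjusted p = 0.18, r 0.278 without the farthest tumors). The other 10 lists had an r between -0.612 and 0.577, with adjusted p of 0.149 or more by the same permutation test. The lowest was that of the list for the tumor cells of this model, whose sum was led by Vim. The part of nerve or brain tissue in the Axin2 levels was not tested.

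**Figure D4:**
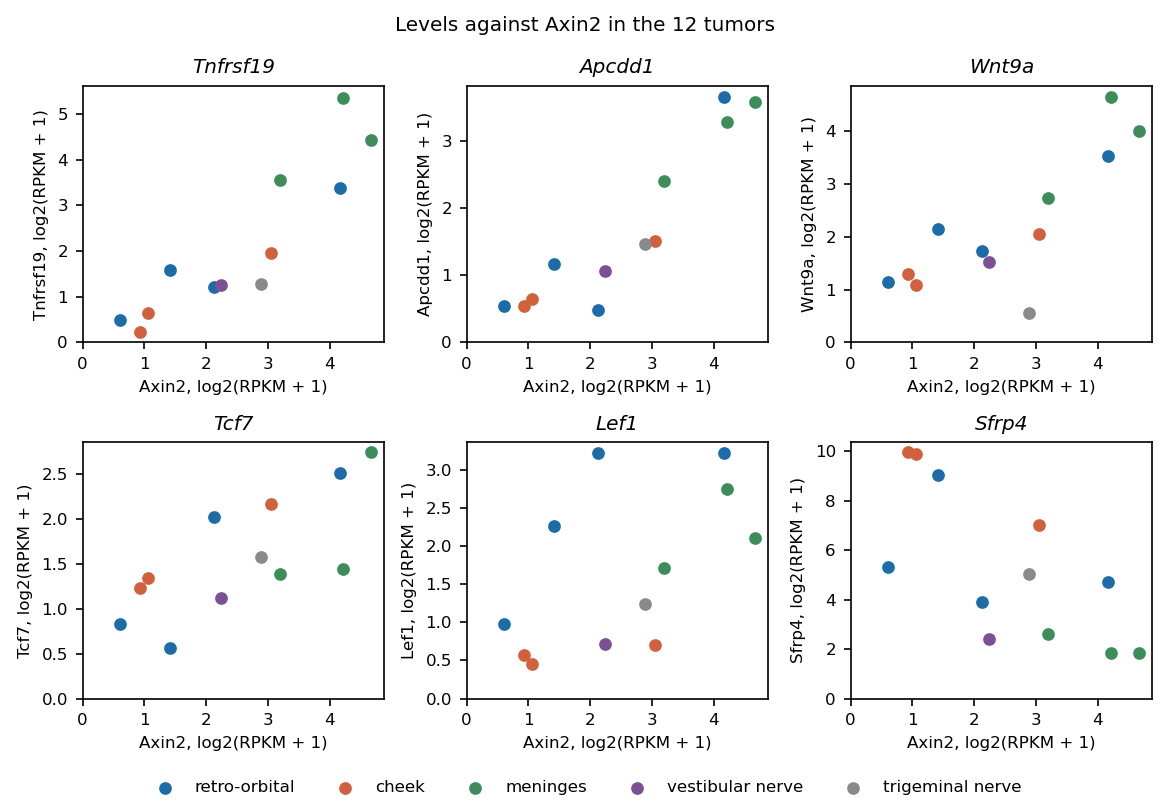
Levels of Tnfrsf19, Apcdd1, Wnt9a, Tcf7, Lef1 and Sfrp4 against Axin2, all as log2(RPKM + 1), with 1 point per tumor colored by location. Tnfrsf19 and Apcdd1 rise with Axin2 (r 0.896 and 0.922), Lef1 scatters, and Sfrp4 lies lower where Axin2 is high (r -0.698).

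To show the sequence next to these genes, the 250 bases upstream of the start were read from RefSeq (GRCm38.p6) for Axin2, for Tnfrsf19 at its downstream start and for Dkk1. The letters searched for on both strands were CTTTGAT and CTTTGAA, forms of the TCF/LEF recognition sequence, which differ in their last base. Matches are in capitals and all other bases in lower case. RefSeq promoters were found for 32 of the 49 Wnt genes.
Axin2, chr11:108920099-108920348, plus strand: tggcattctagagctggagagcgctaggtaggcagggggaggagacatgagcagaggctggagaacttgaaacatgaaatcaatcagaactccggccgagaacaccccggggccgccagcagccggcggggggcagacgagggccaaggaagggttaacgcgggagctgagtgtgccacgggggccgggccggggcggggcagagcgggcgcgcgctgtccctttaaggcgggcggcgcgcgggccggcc
Tnfrsf19, chr14:61037988-61038237, minus strand: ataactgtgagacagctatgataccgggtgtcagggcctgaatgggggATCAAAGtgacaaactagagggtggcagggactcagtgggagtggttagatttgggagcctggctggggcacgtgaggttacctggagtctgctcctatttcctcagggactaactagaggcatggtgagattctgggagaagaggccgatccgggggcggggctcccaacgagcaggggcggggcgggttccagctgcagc
Dkk1, chr19:30549497-30549746, minus strand: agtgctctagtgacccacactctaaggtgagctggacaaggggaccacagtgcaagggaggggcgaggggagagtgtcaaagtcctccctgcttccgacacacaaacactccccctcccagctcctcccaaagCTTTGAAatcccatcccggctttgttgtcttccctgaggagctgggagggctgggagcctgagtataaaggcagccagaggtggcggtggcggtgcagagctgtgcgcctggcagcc
The window of Axin2 held neither form, which says only that these letters are not in this window. That of Tnfrsf19 shown held CTTTGAT on the opposite strand, beginning 202 bases before the start, and that of Dkk1 held CTTTGAA 117 bases before the start. The window at the upstream start of Tnfrsf19 (chr14:61046856-61047105) held neither form. Of all 32851 promoters, 3.21% held CTTTGAT, 4.46% held CTTTGAA and 7.48% held either. Of the 39 promoters of Wnt genes 3 held either (7.69%), those of Dkk1, Wnt11 and Wnt5b. Dkk1 did not follow Axin2 across the tumors (r 0.160, rho 0.343, permutation test, adjusted p = 0.799).

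The 71 further genes of the pathway cover Wnt secretion, other receptors, receptor turnover, other secreted modulators, the destruction complex, nuclear factors, planar polarity and feedback targets. Over the locations 61 of them were tested, none passed the limma F test or a contrast between 2 locations, and 6 (9.84%) had an unadjusted F p under 0.05, beside 14.3% of all genes. Beta-catenin itself (Ctnnb1) was abundant in every tumor, from 129 RPKM in retro-orbital 2 to 481 RPKM in retro-orbital 1. Wls, which carries Wnt proteins to the cell surface, was between 28.5 and 98.0 RPKM, and Porcn, which attaches their lipid, between 1.39 and 23.6 RPKM.

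Among the feedback targets, Tnfrsf19 was 20.7, 40.02 and 10.7 RPKM in the meninges tumors, 0.402, 2.001, 9.34 and 1.30 RPKM in the retro-orbital tumors and 2.90, 0.565 and 0.174 RPKM in the cheek tumors. All meninges tumors lay above all others of these locations (cheek minus meninges -3.50 on the log2 scale, limma, adjusted p = 0.113). Apcdd1 was 10.9, 8.75 and 4.32 RPKM in the meninges tumors and 0.460 to 1.84 RPKM in the cheek tumors, but reached its highest value, 11.6 RPKM, in retro-orbital 3. Sp5, a transcription factor and direct Wnt target, was below 1 RPKM in 10 tumors, 3.15 RPKM in meninges 1 and 1.19 RPKM in retro-orbital 3.

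Lgr5, the Rspo receptor of stem cells, was 8.42 RPKM in retro-orbital 3, 5.33 RPKM in meninges 3 and 1.35 RPKM in retro-orbital 4, and below 1 RPKM in the other 9. Rnf43, a ligase that removes Fzd receptors, was 0.0868 RPKM in retro-orbital 2 and up to 8.12 RPKM in cheek 3, and its relative Znrf3 was between 1.77 and 4.52 RPKM. Prickle1, a planar polarity protein, was 16.4, 43.1 and 39.4 RPKM in the meninges tumors and 1.15 to 1.84 RPKM in the cheek tumors (cheek minus meninges -3.73 on the log2 scale, limma, adjusted p = 0.113). Gpc3, a cell surface proteoglycan, was 5.54 to 19.6 RPKM in the cheek tumors and 36.2 to 207 RPKM in the meninges tumors (cheek minus meninges -3.50 on the log2 scale, limma, adjusted p = 0.165).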

How the data were processed

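RNA of 12 tumors was sequenced from stranded libraries after removal of ribosomal RNA, and all were run in a single pool. The deposited values are RPKM, 1 per gene and tumor, for which the authors used STAR with the mm10 genome, retained reads with a unique position and summed fragments over RefSeq genes in HTSeq. The transcript lengths and the strand setting are not given in the sources used here, so reads of overlapping antisense genes cannot be told apart. Of the 24060 rows, 27 have a date where the symbol should be. They stayed in every fit and are not named.

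Groups were the locations in the labels. limma 3.58.1 (R 4.3.3, trended and robust variance) was fitted on log2(RPKM + 1) for genes with at least 1 RPKM in 3 tumors, with Benjamini-Hochberg adjustment over all genes. This scale understates changes of low genes. Correlations used 100000 permutations, whose smallest p is 1e-05. The scripts recovered planted changes in simulated data. Those changes were large and the simulated tumors independent, so this does not measure the power to find smaller changes in these tumors. Fragment totals were recovered from RPKM steps with GENCODE M21 lengths on GRCm38, the build of mm10. The fragment counts of most Wnt genes used a length chosen so that all values were whole. Positions are from GENCODE M21.

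The members and lists were chosen with earlier results of these data known. Values are given for feedback targets, the 3 highest medians in each class and the Wnt genes with an unadjusted F p under 0.05. Others were chosen after their values were seen. The planned count of members was 50, and the rows hold 49, since Sfrp3 is listed as Frzb. Pseudocount, filter, normalization, variance prior, an identifier block and left-out tumors were varied. The Schwann cell and oligodendrocyte lists were used less some genes, which are not reported here, a choice made after the values of the full lists were seen.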

Additional observations from a re-analysis of the deposited data

Results flagged for a closer look

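Within the 4 retro-orbital tumors, a value was marked where its gap to the nearest other tumor exceeded Dixon's 95% critical share of the group's range on the log2(RPKM + 1) scale, a limit that chance passes in about 1 of 20 groups. Of the 49 Wnt genes, 9 were marked (18.4%), beside 16.1% of the 19771 genes whose values differ in these tumors. Among genes below 1 RPKM in all 4 tumors the share was 40.3%, and 1 value above 0 among values of 0 always meets this limit. Of the 37 Wnt genes not below 1 RPKM in all 4 tumors, 1 was marked, beside 9.76% of all such genes. This gene was Sfrp2, at 11.2 RPKM in retro-orbital 3 against 2.38 to 3.04 RPKM in the others.

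The other 8 were among the 12 Wnt genes below 1 RPKM in all 4 tumors, beside 40.3% of all such genes. In retro-orbital 4, Wnt9b was 0.682 RPKM (127 fragments) against at most 0.0658 RPKM, Wnt10b was 0.338 RPKM (31 fragments) against at most 0.0458 RPKM, and Wnt8a was 0.176 RPKM (11 fragments) against 0. Wnt3 was 0.0779 RPKM (10 fragments) and Wnt1 was 0.0614 RPKM (6 fragments) in the same tumor. In retro-orbital 3, Wnt8b was 0.197 RPKM (38 fragments) and Wnt3a was 0.0764 RPKM (12 fragments), both against 0 in the other 3. Rspo4 was 0.140 RPKM (9 fragments) in retro-orbital 1 and listed at 0 in the others. Retro-orbital 3 and 4 have the largest fragment totals of the 12 tumors, 57128408 and 41230593, and the part of depth in these marks was not tested.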

How the results depend on the processing

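The count of 0 Wnt genes past the threshold held in the F test and each contrast under another pseudocount (0.1), no filter, a filter of 5 RPKM, quantile normalization and limma without trend and robust options. With the identifier number as a block, 11 Wnt genes passed the F test and 12 passed cheek minus meninges, Sfrp4 at 5.37 (log2), while Notum went from 3.64 to 1.26 there, and 2802 of all genes passed the F test and 28.8% of all genes passed cheek minus meninges. That block estimated a correlation of 0.93 from 2 pairs of tumors, cheek 2 with cheek 3 and cheek 1 with meninges 1, and the shared numbers are not stated to mark shared animals. The number of all genes called in the F test, 6, was 10 with no filter, 3 with the 5 RPKM filter and 19 without trend and robust options.

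Leaving out each tumor in turn gave 0 to 1 Wnt genes in the F test, 0 to 2 in cheek minus meninges, 0 in the other contrasts and 0 to 198 of all genes. It was 0 without cheek 2, cheek 3 or meninges 1, 3 without meninges 3, 14 without retro-orbital 1, 56 without retro-orbital 3 and 198 without cheek 1. The cause was not tested. Sfrp4 cheek minus meninges was 6.35 to 7.82. Against Axin2, 0 to 1 Wnt genes passed, and none passed under the other alternatives. Averaging tumors that share a number was added after seeing the data. The 9 differences given for 7 Wnt genes kept their direction under every alternative in which the gene was tested. Fzd3 and Rspo2 were not tested with the 5 RPKM filter. Another filter, limma without trend and robust options, or a left-out tumor of the third location cannot change a difference between 2 locations. In those settings the direction was fixed in advance. All of these genes but Axin2 were named for their unadjusted F p in the same data. Genes near 0 rest on few fragments and allow no comparison between locations.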

Other observations

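Some modulators outside the 49 genes were high in single tumors. Frzb, the secreted decoy also called Sfrp3, was 69.0 RPKM in meninges 3, 11.3 RPKM in cheek 1, 9.58 RPKM in retro-orbital 3, 7.49 RPKM in retro-orbital 4 and at most 4.64 RPKM in the other 8 tumors. Meninges 3 was also the tumor with the highest Wnt16 and Fzd7. Ror2, a receptor for Wnt5a, was 20.7 RPKM in meninges 2, 15.5 RPKM in the vestibular nerve tumor and 12.1 RPKM in meninges 3, and 0.439 RPKM in meninges 1, where Wnt5a was 24.9 RPKM. Meninges 2, with the highest Ror2, held the highest Fzd1, Sfrp1, Sfrp2, Wnt2b, Wnt9a, Rspo2, Rspo3 and Porcn of the 12 tumors.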
